A study of Mus musculus with 8 samples.

Results

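This report describes the Fc gamma receptors of mouse leukocytes from brain and meninges before and after experimental stroke. The members are Fcgr1, Fcgr3, Fcgr4, Fcgr2b, Fcer1g and Fcgrt, 6 of 30406 gene identifiers shared by all libraries, and they were taken as a named list of genes rather than by a threshold on measured values. Unique molecular identifiers (UMIs, tags that count each captured transcript once) were summed per library and annotated cluster and scaled to CPM, the counts in 1000000 UMIs. Droplet-based single-cell RNA-seq with 10x Chromium kits was run on leukocytes of adult male C57BL/6 mice, sorted as positive for CD45 and unstained by a CD45 antibody given intravenously, a gate meant to keep cells of the tissue and leave out cells of the blood. Stroke was a transient middle cerebral artery occlusion (MCAO) by filament. Brain was taken from controls (1 library), at 24 h after MCAO (2 libraries, replicates 1 and 2) and at 72 h (1 library), while pia and dura were each taken from controls and at 24 h (1 library apiece). The brain libraries hold parenchyma without choroid plexus. The control mice are described as naive in one place and as sham-operated in another, so these libraries are called control, and the study describes pooling of replicate experiments per compartment without saying how many mice went into each library. For the pia of controls, the tissue label reads pia although the sample title reads brain. The 8 libraries held 36854 barcodes, of which 32457 carried 1 of 21 cluster names given by hand, with totals of 6591898 to 20754181 UMIs per library and median depths of 1071.5 to 2501 UMIs per annotated cell. Pairs of libraries shared 0 to 43 barcodes, at most 0.995% of the smaller library.

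Fc gamma receptors bind the constant part of IgG antibodies and couple antibody-coated targets to phagocytosis, cytokine release and antigen uptake. In mice, Fcgr1 encodes the high-affinity receptor FcγRI, Fcgr3 the low-affinity receptor FcγRIII and Fcgr4 the receptor FcγRIV. These activating receptors signal through the common γ chain encoded by Fcer1g, whose ITAM recruits the kinase Syk. Fcgr2b encodes FcγRIIB, the inhibitory receptor, whose ITIM recruits the phosphatase SHIP1 (Inpp5d) and counters the activating receptors on the same cell. Fcgrt encodes the heavy chain of the neonatal Fc receptor FcRn, which pairs with B2m, binds IgG in acidic endosomes and returns it to the surface. Microglia and macrophages carry these receptors, neutrophils use mainly the low-affinity ones, B cells carry Fcgr2b as their IgG receptor, and NK and mast cells need the γ chain for their own receptors.

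Of the 6 members, 4 lie close together on chromosome 1 of the build GRCm38, with Fcgr2b at 170958617 to 170976547, Fcgr4 at 171018920 to 171029761, Fcgr3 at 171051174 to 171064935 and Fcer1g at 171229572 to 171234365. Fcgr1 lies on chromosome 3 at 96282909 to 96293969 and Fcgrt on chromosome 7 at 45092990 to 45103851. Fcgr4 is on the plus strand and the other members on the minus strand. The annotation places an antisense gene over part of Fcgr2b (Gm38204) and of Fcgrt (Gm45669). Because all 6 genes were high in some of the myeloid clusters, the 100 bases before the RefSeq start of each are shown, in the build GRCm38.p6, with the purine-rich GAGGAA (reverse complement TTCCTC, letters found in many sites of the myeloid factor PU.1) in capitals where it occurs on either strand. It occurs once in the windows of Fcgr1, Fcgr3 and Fcgr4 and not in those of Fcgr2b, Fcer1g and Fcgrt, and 9.82% of 32851 RefSeq windows of this length hold it. Fcgr3 has 2 RefSeq entries, and the window of the one shown lies inside the span given above. The window of Fcgr2b also lies inside its span, those of Fcgr4, Fcer1g and Fcgrt overlap theirs in part, and that of Fcgr1 lies outside.
Fcgr1, chr3:96293970-96294069, minus strand: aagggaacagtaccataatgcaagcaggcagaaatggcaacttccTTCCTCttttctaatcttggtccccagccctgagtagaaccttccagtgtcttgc
Fcgr3, chr1:171059404-171059503, minus strand: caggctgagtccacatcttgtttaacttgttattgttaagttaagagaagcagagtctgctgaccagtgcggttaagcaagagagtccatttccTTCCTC
Fcgr4, chr1:171018826-171018925, plus strand: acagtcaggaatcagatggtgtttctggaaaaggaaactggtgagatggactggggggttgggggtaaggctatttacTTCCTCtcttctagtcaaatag
Fcgr2b, chr1:170976072-170976171, minus strand: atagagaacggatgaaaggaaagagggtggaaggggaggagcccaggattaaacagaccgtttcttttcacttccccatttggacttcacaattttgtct
Fcer1g, chr1:171234350-171234449, minus strand: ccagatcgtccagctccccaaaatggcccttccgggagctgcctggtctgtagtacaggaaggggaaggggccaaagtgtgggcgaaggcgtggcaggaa
Fcgrt, chr7:45103823-45103922, minus strand: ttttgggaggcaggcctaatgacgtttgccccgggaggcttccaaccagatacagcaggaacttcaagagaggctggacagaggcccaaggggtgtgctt

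A difference between libraries runs through the levels of these genes and is given before the results. Of the 8 count files, 6 list 32285 genes, while those of brain at 72 h and of the second 24 h brain replicate list 31053. Fcgr3 was lower in brain at 24 h replicate 2 than in replicate 1, the pair of the same condition, in 10 of 10 clusters with enough cells in both, by log2 differences between -2.64 and -1.44 with a median of -1.999. The median difference of all genes in the same clusters lay between -0.32 and 0.37. For the other genes, the median log2 difference between these replicates was -1.20 for Fcgr2b, -0.90 for Fcer1g, -0.74 for Fcgrt, -0.31 for Fcgr1 and 0.37 for Fcgr4. Ranked among all genes of a cluster, these differences stood at percentiles 2.41 to 19.7 for Fcgr3 and 3.51 to 35.9 for Fcgr2b. The percentiles were 16.7 to 52.3 for Fcer1g, 0.494 to 60.6 for Fcgrt, 10.8 to 72.1 for Fcgr1 and 31.8 to 73.7 for Fcgr4. In some clusters the shifts of Fcer1g and Fcgrt thus lay near the middle of all genes. In 14 of 18 clusters, every library with the shorter list was below every library with the longer list for Fcgr3, in 14 for Fcgr2b, in 13 for Fcgrt and in 9 for Fcer1g, but in only 1 each for Fcgr1 and Fcgr4. The reverse, every library with the shorter list above every other, held in 5 of 18 clusters each for Fcgr1 and Fcgr4, in 1 each for Fcgr3 and Fcgrt and in 0 for Fcgr2b and Fcer1g. The share of all genes that separated in this way was not counted. Both libraries with the shorter list are brain, while most of the others are pia or dura. Shared barcodes split in the same way. Pairs of libraries with the longer list shared 12 to 43 barcodes, pairs with unlike lists 0 to 2, and the 2 libraries with the shorter list 13. What lies behind this split was not tested. It bears on brain at 24 h and at 72 h, so values without these 2 libraries are given beside several, but not all, of the results they touch. Transcripts of Fcgr3 and Fcgr2b share identical stretches, with 64 windows of 90 bases in common, 3.93% of those of Fcgr3 and 1.67% of those of Fcgr2b, and 0 of these windows were in the last 500 bases, where reads of a 3′ assay start.

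The cluster names were checked against marker genes. The macrophage clusters CAM_1, CAM_2, Macro_1 and Macro_2 (CAM stands for CNS-associated macrophages) carried microglial transcripts in brain. The summed level of P2ry12, Tmem119, Sall1 and Sparc in these clusters was 9641 CPM in control brain and 2351 and 494 in the replicates of brain at 24 h, against 127 to 216 CPM in pia and dura. The border macrophage markers Pf4, Lyve1, Mrc1, Cd163 and F13a1 summed to 19.7 to 532 CPM in the 4 brain libraries and to 2618 to 3861 CPM in the 4 libraries of pia and dura. Monocyte markers (Ly6c2, Ccr2, Fn1, Chil3, Vcan and Plac8) summed to 1348 and 1962 CPM in the libraries with the shorter gene list and to 103 to 432 CPM in the others. In the cluster named Granulo_1, Ccr2 averaged 631 ± 265 CPM (SD, n = 7 libraries) and Fn1 943 ± 1003, whereas the neutrophil genes Ly6g and Cxcr2 averaged 0.941 ± 2.49 and 0.444 ± 0.572. Granulo_2 carried the neutrophil markers, with summed levels of 122469 to 306584 CPM against 77.5 to 3449 CPM in Granulo_1. The summed monocyte markers overlapped, at 753 to 10183 CPM in Granulo_1 and 3390 to 9549 CPM in Granulo_2. Of these markers, Chil3 was highest in Granulo_2 (5219 CPM) and Ly6c2 in Macro_1. These clusters are therefore called by their given names, without a cell type for Granulo_1.

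**Figure D1:**
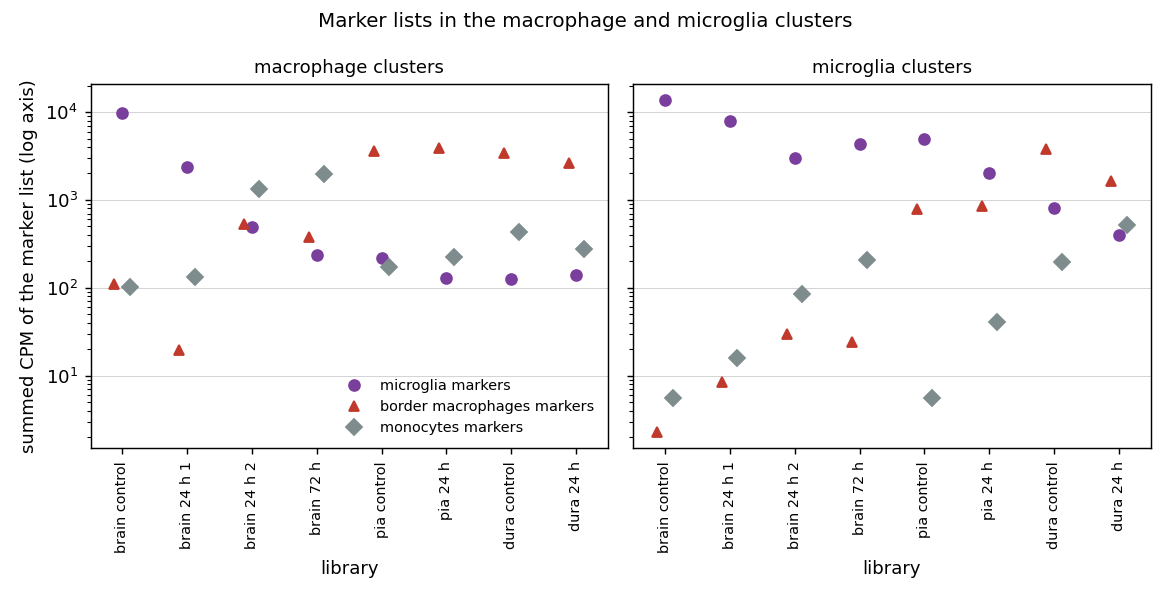
Summed CPM of 3 marker lists (log axis) in the macrophage clusters (left) and the microglia clusters (right) of each library. In the macrophage clusters the microglia markers go from 9641 CPM in control brain to 238 in brain at 72 h, and the border macrophage markers lie at 2618 CPM or above in pia and dura only.

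Levels by cluster are means in which each library counted equally if it held 30 cells of the cluster or more, and since the clusters were made from these same counts they are a description without a test. UMIs of a 3′ assay do not scale with transcript length, so CPM of different genes were set side by side. The shifts between the 24 h brain replicates given above differed by gene, so levels of different genes compare only roughly. Fcgr1, the high-affinity activating receptor, was highest in Macro_1, at 859.8 CPM (exact Poisson 95% interval 726 to 1011), a cluster with enough cells in brain at 72 h alone. Micro_3, Micro_2, CAM_2, CAM_1, Micro_1 and SAMC (stroke-associated myeloid cells) followed between 234 and 266 CPM, and Macro_2 had 146 ± 22.2 CPM (SD, n = 8 libraries). In Granulo_1 it averaged 158 ± 71.4 CPM (SD, n = 7 libraries) and in Granulo_2 13.9 ± 12.7 CPM (SD, n = 6 libraries). Within libraries, Fcgr1 was lower in Granulo_2 than in Granulo_1 in 6 of 6, by a mean log2 difference of -3.62 ± 1.22 (SD).

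Fcgr3, the low-affinity activating receptor, had the highest means of the 3 activating receptor genes in most myeloid clusters. It reached 1552 ± 993 CPM (SD, n = 7 libraries) in Micro_1, 1481 ± 797 CPM (SD, n = 8 libraries) in CAM_2 and 1306 ± 661 CPM (SD, n = 8 libraries) in CAM_1. In the libraries with the longer gene list, the means of these clusters were 1940.0 ± 907 CPM (SD, n = 5 libraries), 1856 ± 459.7 CPM (SD, n = 6 libraries) and 1614 ± 391.9 CPM (SD, n = 6 libraries). Granulo_1 had 796 ± 328 CPM (SD, n = 7 libraries) and Granulo_2 447 ± 315 CPM (SD, n = 6 libraries). With the longer gene list alone they had 984 ± 82.9 CPM (SD, n = 5 libraries) and 567 ± 326 CPM (SD, n = 4 libraries). Macro_1, measured in a library with the shorter list, had 234 CPM, about as much as its Fcgr4 and less than its Fcgr1. The libraries with the longer list, each under 30 cells of Macro_1, had 768 to 2006 CPM of Fcgr3 there. In the dendritic cell clusters Fcgr3 was higher in mDC2 than in mDC1 in 6 of 6 libraries, at 195 ± 94.0 CPM (SD, n = 6 libraries) and 83.0 ± 94.7 CPM (SD, n = 6 libraries).

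Fcgr4, the third activating receptor, was less abundant than Fcgr1 and Fcgr3 in the macrophage and microglia classes as a whole. In Macro_1, measured in a library with the shorter list, it was below Fcgr1 and within counting error of Fcgr3 (48 and 40 UMIs). In the libraries with the longer list, each under 30 cells of Macro_1, Fcgr4 had 0 to 39 UMIs and Fcgr3 38 to 74, with 39 of each in control pia. Fcgr4 reached 281 CPM (interval 207 to 372) in Macro_1, 105 ± 47.1 CPM (SD, n = 8 libraries) in Macro_2, 92.1 ± 25.9 CPM (SD, n = 4 libraries) in SAMC and 90.2 ± 25.1 CPM (SD, n = 7 libraries) in Granulo_1. Granulo_2 had 78.1 ± 34.1 CPM (SD, n = 6 libraries), which was close to Granulo_1 although Fcgr1 and Fcgr2b differed between these clusters. Microglia clusters had less Fcgr4 than macrophage clusters in 8 of 8 libraries, by a mean log2 difference of -1.03 ± 0.61 (SD). In T cells (Tc) it averaged 1.55 ± 1.68 CPM (SD, n = 8 libraries).

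Fcgr2b, the inhibitory receptor, was highest in CAM_1 at 541 ± 311 CPM (SD, n = 8 libraries), with CAM_2 at 512 ± 231 CPM (SD, n = 8 libraries), Macro_2 at 507 ± 192 CPM (SD, n = 8 libraries) and mDC2 at 487 ± 225 CPM (SD, n = 6 libraries) close behind. In the libraries with the longer gene list mDC2 had 621 ± 96.9 CPM (SD, n = 4 libraries). There CAM_1 had 663 ± 253, CAM_2 603 ± 184 and Macro_2 583 ± 151 CPM (SD, n = 6 libraries each), so mDC2 stood second. It was higher in mDC2 than in mDC1 in 6 of 6 libraries, by a mean log2 difference of 1.68 ± 0.79 (SD), and lower in Granulo_2 than in Granulo_1 in 6 of 6, by -2.50 ± 0.31. Granulo_2 had 76.9 ± 45.6 CPM (SD, n = 6 libraries). B cells (Bc) had 92.0 ± 42.7 CPM (SD, n = 6 libraries), more than T cells in 6 of 6 libraries, with a mean log2 difference of 2.72 ± 0.55 (SD).

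Fcer1g, the signalling chain, had the highest mean over libraries of the group in every cluster, though not in every library, and also stood high in clusters with few of them. Granulo_1 had 3567 ± 819 CPM (SD, n = 7 libraries), Granulo_2 3537 ± 1949 CPM (SD, n = 6 libraries) and CAM_2 3465 ± 974 CPM (SD, n = 8 libraries). With the longer gene list alone Granulo_2 stood above Granulo_1, at 4290 ± 2013 CPM (SD, n = 4 libraries) and 4000 ± 424 CPM (SD, n = 5 libraries). NK cells had 2523 ± 552 CPM (SD, n = 6 libraries) and mast cells (Mast) 2209.8 ± 184 CPM (SD, n = 2 libraries), both close to Micro_1 at 2315 ± 734 CPM (SD, n = 7 libraries). NK cells exceeded T cells in 6 of 6 libraries, by a mean log2 difference of 3.48 ± 0.40 (SD). Fcgrt, the FcRn heavy chain, followed another order, with CAM_2 at 577 ± 539 CPM (SD, n = 8 libraries), CAM_1 at 512 ± 490.1 CPM (SD, n = 8 libraries), Micro_2 at 262 ± 225 CPM (SD, n = 6 libraries), Macro_2 at 235 ± 183 CPM (SD, n = 8 libraries) and mDC1 at 209 ± 71.0 CPM (SD, n = 6 libraries). The SDs of CAM_1 and CAM_2 were about as large as their means, with brain libraries far below pia and dura. Granulo_2 had 16.4 ± 13.4 CPM (SD, n = 6 libraries).

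Of 120 pairs of neighbours in these 6 orders of clusters, 17 differed by more than the SD of their within-library difference, 82 did not, and 21 had fewer than 2 libraries in common. Neighbours that did not differ include CAM_1, CAM_2 and Macro_2 for Fcgr2b, and Granulo_1, Granulo_2 and CAM_2 for Fcer1g. SAMC against Macro_2 for Fcgr3 and mDC2 against Granulo_2 for Fcgr1 were among the 17.

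**Figure D2:**
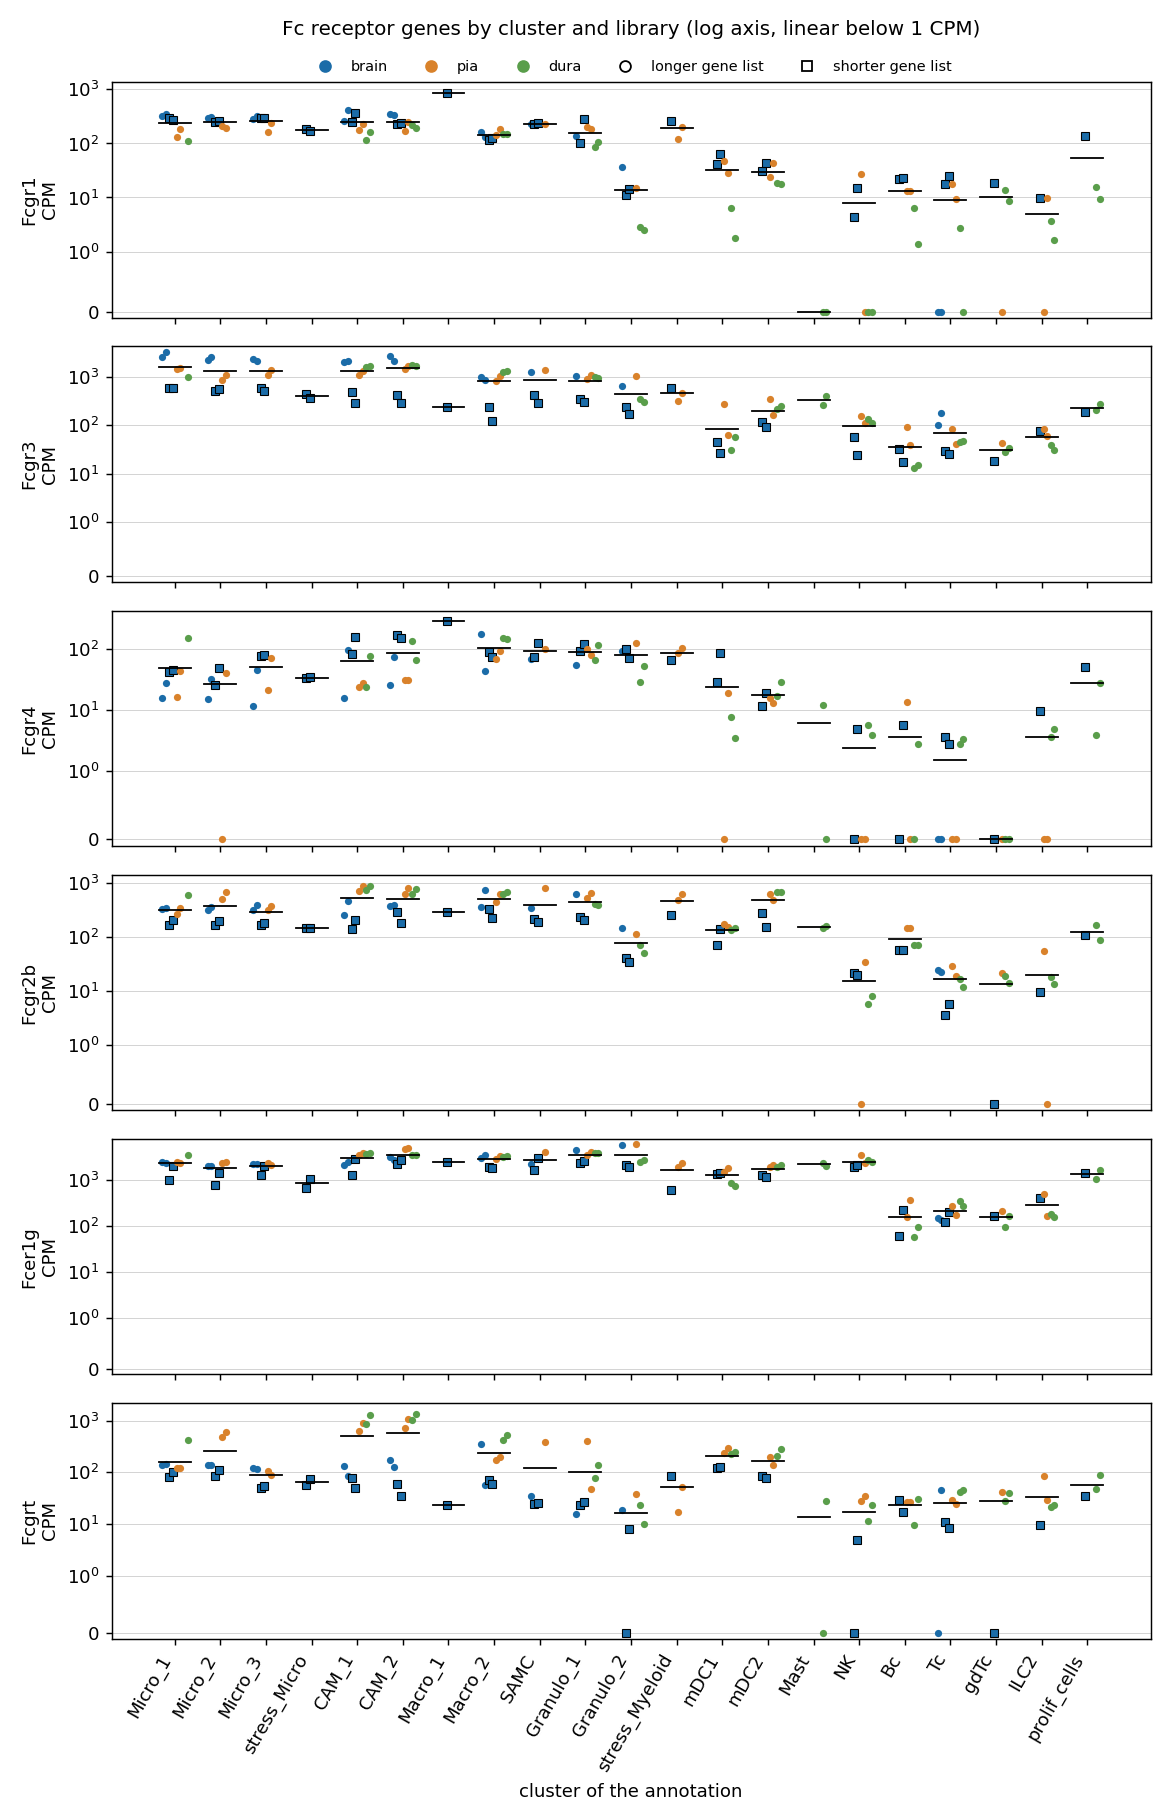
CPM of the 6 genes (log axis, linear below 1 CPM) in each of the 21 clusters. Points are libraries that held 30 cells of the cluster or more, coloured by tissue, squares are the 2 libraries with the shorter gene list, and bars are means. Fcgr3 squares lie below the circles in most clusters, and Fcgrt of CAM_1 and CAM_2 lies lower in brain than in pia and dura.

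Shares of cells with at least 1 UMI were compared after thinning each cell to 1000 UMIs, over the libraries with the longer gene list, with exact binomial 95% intervals that cover counting error only. T cells served as the cluster that should lack the receptors. Their cluster also carried the NK markers Ncr1, Klrb1c, Gzma and Nkg7, summed to 1050 to 3912 CPM against 0 to 51.5 CPM in B cells. Whether its shares of Fcer1g and Fcgr3 are background alone was not tested. Fcgr3 was found in 87.5% (86.7 to 88.3%) of 6966 microglia, 66.3% (65.1 to 67.4%) of 6543 macrophage cluster cells, 61.0% (56.8 to 65.0%) of 574 cells of Granulo_1 and 30.9% (26.5 to 35.7%) of 404 cells of Granulo_2. In T cells this share was 5.64% (4.04 to 7.64%) of 691, and B cells, at 4.18% (2.02 to 7.56%) of 239, lay at that background with overlapping intervals. NK cells, at 12.01% (8.83 to 15.8%) of 358, lay above it. Without thinning these shares were 94.0%, 83.3%, 83.2%, 49.1%, 5.39%, 2.95% and 12.7%, at median depths of 866 (B cells) to 2477.5 UMIs (Granulo_1) per cell. Thinning left out 515 microglia, 806 macrophage cluster cells, 50 cells of Granulo_1, 291 of Granulo_2, 757 T cells, 474 B cells and 226 NK cells with fewer UMIs.

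For Fcgr2b, the thinned share was 11.7% (7.93 to 16.5%) in B cells against 1.88% (1.01 to 3.20%) in T cells, 40.4% (36.9 to 44.0%) in mDC2 and 42.5% (41.3 to 43.8%) in the macrophage clusters. Fcgr4 was found in 7.18% (4.86 to 10.1%) of Granulo_2 cells and 7.41% (6.79 to 8.07%) of macrophage cluster cells, and in 0 of 691 T cells, which allows a share of up to 0.434% of cells with a UMI at this depth (3 counts) and sets no limit on cells that express the gene. Fcgr1 in Granulo_2, at 0.495% (0.0600 to 1.78%), did not exceed the 0.724% (0.235 to 1.68%) of T cells and is read as background. Fcer1g was found in 88.0% (84.2 to 91.2%) of NK cells, but also in 20.8% (17.9 to 24.1%) of T cells and 8.79% (5.52 to 13.1%) of B cells. Unthinned, Fcgr2b shares were 11.4% in B cells, 1.73% in T cells, 67.6% in mDC2 and 61.8% in the macrophage clusters, and the Fcer1g share of NK cells was 86.8%.

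To set activating against inhibitory receptors, the UMIs of Fcgr1, Fcgr3 and Fcgr4 together were divided by those of Fcgr2b in each library, with 0.5 counts added to each, on the log2 scale. This is a ratio of RNA counts, and receptor protein was not measured. Activating UMIs exceeded inhibitory ones in microglia, macrophages, Granulo_1, Granulo_2 and mast cells, while inhibitory UMIs exceeded activating ones in mDC2 and B cells. The mean log2 ratio was 2.77 ± 0.39 (SD, n = 6) in Granulo_2, 2.27 ± 0.57 (SD, n = 8) in the microglia clusters, 1.58 ± 0.71 (SD, n = 8) in the macrophage clusters, 1.30 ± 0.30 (SD, n = 7) in Granulo_1 and 1.00 ± 0.51 (SD, n = 8) in Macro_2. These are 6.81-fold, 4.82-fold, 3.00-fold, 2.47-fold and 2.00-fold more activating than inhibitory UMIs. In the dendritic clusters (mDC1 and mDC2) it was -0.67 ± 0.58 (SD, n = 7), 0.627-fold, with -0.90 ± 0.50 (SD, n = 6) in mDC2 and -0.23 ± 1.03 (SD, n = 6) in mDC1. B cells had -0.95 ± 0.81 (SD, n = 6), on 56 activating UMIs in all, a number near their background. With the longer gene list alone the means were 2.67 ± 0.46 (SD, n = 4) in Granulo_2, 2.28 ± 0.67 (SD, n = 6) in microglia, 1.65 ± 0.82 (SD, n = 6) in macrophages and -0.93 ± 0.42 (SD, n = 5) in dendritic clusters.

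Some of these pairs kept their order within every library. Granulo_1 did not, exceeding the macrophage clusters in 5 of 7 libraries, with a mean log2 difference of -0.08 ± 0.61 (SD). Microglia clusters had a higher ratio than macrophage clusters in 8 of 8 libraries, by 0.68 ± 0.40 on the log2 scale (SD). This difference was smallest in control brain, at 0.079, where the macrophage clusters carried microglia markers. In pia and dura the microglia clusters carried border macrophage markers (782 to 3754 CPM). Dendritic clusters lay below macrophage clusters in 7 of 7, by -2.06 ± 0.66, and Granulo_2 above Granulo_1 in 6 of 6, by 1.44 ± 0.52. SAMC, at 1.68 ± 0.46 (SD, n = 4), exceeded the macrophage clusters in 3 of 4 libraries, by 0.15 ± 0.30, a difference smaller than its spread. Fcgr3 supplied most of the activating side in the libraries with the longer gene list. There it made up 82.5% of activating UMIs in the macrophage clusters on average, 85.6% in microglia and 86.7% in Granulo_2. The rest was mainly Fcgr1 in macrophages (12.6%) and microglia (11.4%), and mainly Fcgr4 in Granulo_2 (11.4%, with 1.93% of Fcgr1). In brain at 72 h, with the shorter list, the share of Fcgr3 was 38.5% in the macrophage clusters and 17.0% in Macro_1, below the share of Fcgr1 in Macro_1 (62.6%). The other libraries had fewer than 30 cells of Macro_1. In those with the longer list, Fcgr3 had more UMIs than Fcgr1. In brain these were 38 against 16 (control) and 74 against 34 (24 h replicate 1). In pia they were 39 against 28 and 60 against 44, and in dura 65 against 38 and 56 against 37, controls first. Replicate 2, with the shorter list, had 9 against 37.

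**Figure D3:**
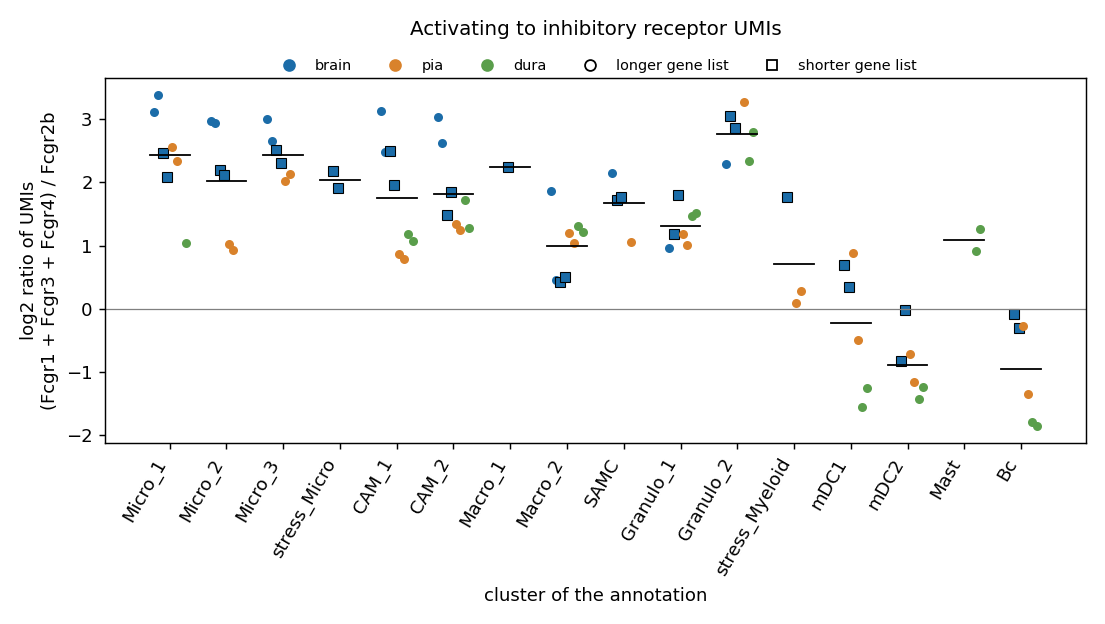
Log2 ratio of activating (Fcgr1, Fcgr3 and Fcgr4) to inhibitory (Fcgr2b) UMIs in 16 clusters. Points are libraries coloured by tissue, squares the 2 libraries with the shorter gene list, bars the means, and the line at 0 marks equal numbers. Granulo_2 lies highest with a mean of 2.77, and mDC2 and B cells lie below 0 in every library.

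In the macrophage clusters the ratio was above 0 in all 8 libraries. It was 2.96 in control brain, 2.39 and 1.27 in the replicates of brain at 24 h and 1.48 at 72 h, against 1.09 and 0.95 in control pia and pia at 24 h and 1.34 and 1.19 in control dura and dura at 24 h. Control brain stood highest and pia at 24 h lowest. The 24 h minus control difference was -1.14 in brain, -0.14 in pia and -0.15 in dura, with a mean of -0.48 over tissues. Of the brain libraries with the longer gene list, control stood at 2.96 and replicate 1 at 2.39, a smaller step than the mean of both replicates gives. Against the other arrangements of the labels within tissue this gave p = 0.167 (exact permutation test, two-sided, 12 arrangements, smallest possible p 0.0833). The brain value comes with the microglia markers in these clusters, which were lower at 24 h than in control brain as given above, and with the gene list of replicate 2, and the part of either was not tested. In CAM_1, the ratio was 3.14 in control brain and 0.87 in control pia, and in Macro_2 1.86 and 1.19.

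In the microglia clusters the ratio was 3.04 in control brain, 3.09 and 2.32 in brain at 24 h, 2.16 in brain at 72 h, 2.23 and 1.99 in pia and 1.96 and 1.36 in dura, control first. The 2 brain libraries with the longer gene list lay above all others. In the dendritic clusters it was -0.54 and -0.29 in brain at 24 h, 0.24 in brain at 72 h, -0.49 and -0.94 in pia and -1.45 and -1.24 in dura, controls before 24 h. Control brain had 20 such cells and was left out. The dendritic difference at 24 h was -0.45 in pia and 0.22 in dura, and its mean of -0.12 gave p = 1 in the exact permutation test with 4 arrangements, whose smallest possible two-sided p is 0.5.

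Whether macrophages of the borders differ from those of the brain in Fc receptors was asked next, with edgeR's quasi-likelihood test on summed UMIs and tissue and time as terms. The largest difference was in Fcgrt, the FcRn heavy chain. Its level in the macrophage clusters was 165 CPM in brains of controls, 90.5 and 69.1 CPM in the 24 h brain replicates and 45.9 CPM in the 72 h brain library, 372 and 625 CPM in pia and 551 and 863 CPM in dura (controls first, then 24 h). The 4 libraries of pia and dura lay above the 4 brain libraries without overlap. Fcgr2b, the inhibitory receptor, was at 309.9 CPM in brains of controls, 472 and 274 CPM in the 24 h brain replicates and 207 CPM in the 72 h brain library, 549 and 774 CPM in pia and 642 and 763 CPM in dura (controls first, then 24 h). Pia and dura again lay above every brain library. Fcer1g was at 2547 CPM in brains of controls, 2663 and 1868 CPM in the 24 h brain replicates and 2435 CPM in the 72 h brain library, 3259 and 3767 CPM in pia and 3396 and 3515 CPM in dura (controls first, then 24 h), likewise without overlap. The share of all genes that separated libraries in the same way was not counted, here or for the other separations given below.

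In the fit of all 8 libraries, log2 fold changes of pia over brain were 2.67 (SE 0.55, adjusted p = 0.0939) for Fcgrt, 1.41 (SE 0.43, adjusted p = 0.211) for Fcgr2b and 1.03 (SE 0.48, adjusted p = 0.389) for Fcer1g, with Benjamini-Hochberg adjustment over 10887 genes. None of the 6 genes passed in edgeR, where 0.643% of all genes did (70 of 10887), although Fcgrt and Fcgr2b had unadjusted p-values of 0.00179 and 0.0132. With DESeq2, which called 2.89% of all genes higher, Fcgrt and Fcgr2b passed, and without the filter on low counts, where edgeR called 2.4% higher, Fcgrt passed. Again in edgeR, without brain at 24 h replicate 2 Fcgrt, Fcgr2b and Fcer1g passed, with 14.7% of all genes called higher. When the gene list of a library was added as a term, a setting chosen after the data were seen, the values were 2.37 (SE 0.38, adjusted p = 0.00238), 1.18 (SE 0.22, adjusted p = 0.00336) and 0.85 (SE 0.23, adjusted p = 0.0224), so that 3 of 6 genes were called higher in pia, in a fit that called 14.4% of all genes higher. Without the 2 libraries with the shorter list they were 2.35 (SE 0.39, adjusted p = 0.00422), 1.16 (SE 0.20, adjusted p = 0.00508) and 0.82 (SE 0.22, adjusted p = 0.0244), with 15.8% of all genes called higher. The activating receptors did not pass in any of these fits. In edgeR with all libraries they gave -0.14 (SE 0.42, adjusted p = 0.906) for Fcgr1, -0.017 (SE 0.78, adjusted p = 0.997) for Fcgr3 and 0.22 (SE 0.48, adjusted p = 0.864) for Fcgr4. In the fit with the gene list as a term the values were -0.39 (SE 0.21, adjusted p = 0.2) for Fcgr1, -0.51 (SE 0.23, adjusted p = 0.127) for Fcgr3 and 0.27 (SE 0.33, adjusted p = 0.589) for Fcgr4. Without the libraries with the shorter list they were -0.41 (SE 0.19, adjusted p = 0.152), -0.54 (SE 0.22, adjusted p = 0.101) and 0.25 (SE 0.33, adjusted p = 0.6). The fits with the gene list as a term or without brain at 24 h replicate 2 had no replicate pair left to measure the spread. They and the fit without the libraries with the shorter list estimate pia over brain from the same 6 libraries. Their nearness is therefore no separate check. The median log2 change of all genes was -0.14 with TMM scaling and -0.61 with library size alone.

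These contrasts moved together with the makeup of the macrophage clusters. Macro_2 held 7.95% of their cells in control brain and 54.1% in control pia, and the border macrophage markers differed as given above, so the tissue and the kind of cell cannot be told apart. In Macro_2 alone, log2 fold changes of pia over brain in edgeR were 0.85 for Fcgrt (adjusted p = 0.568), 0.60 for Fcgr2b (0.634) and 0.46 for Fcer1g (0.74). Fcgrt in Macro_2 was 355 CPM in control brain (22 UMIs in 35 cells, interval 223 to 538), 56.8 and 70.5 in brain at 24 h, 60.1 at 72 h, 175 and 201 in pia and 417 and 541 in dura. The groups overlapped there through control brain. In CAM_1, Fcgrt was 50.2 to 134 CPM in brain, 643 and 905 in pia and 884 and 1315 in dura, without overlap. The microglia markers of CAM_1 summed to 94.98 to 10189 CPM per library.

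Between dura and pia, edgeR called 0 of 10887 genes (0%) in the macrophage clusters and none of the 6, with 205 genes at an unadjusted p under 0.05 and 7 called by DESeq2. The largest value among the receptors was that of Fcgr4, at 1.13 (SE 0.49, adjusted p = 1.00). Fcgr4 was 128 and 124 CPM in control dura and dura at 24 h against 58.7 and 57.03 CPM in control pia and pia at 24 h, so that both dura libraries lay above both pia libraries.

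**Figure D4:**
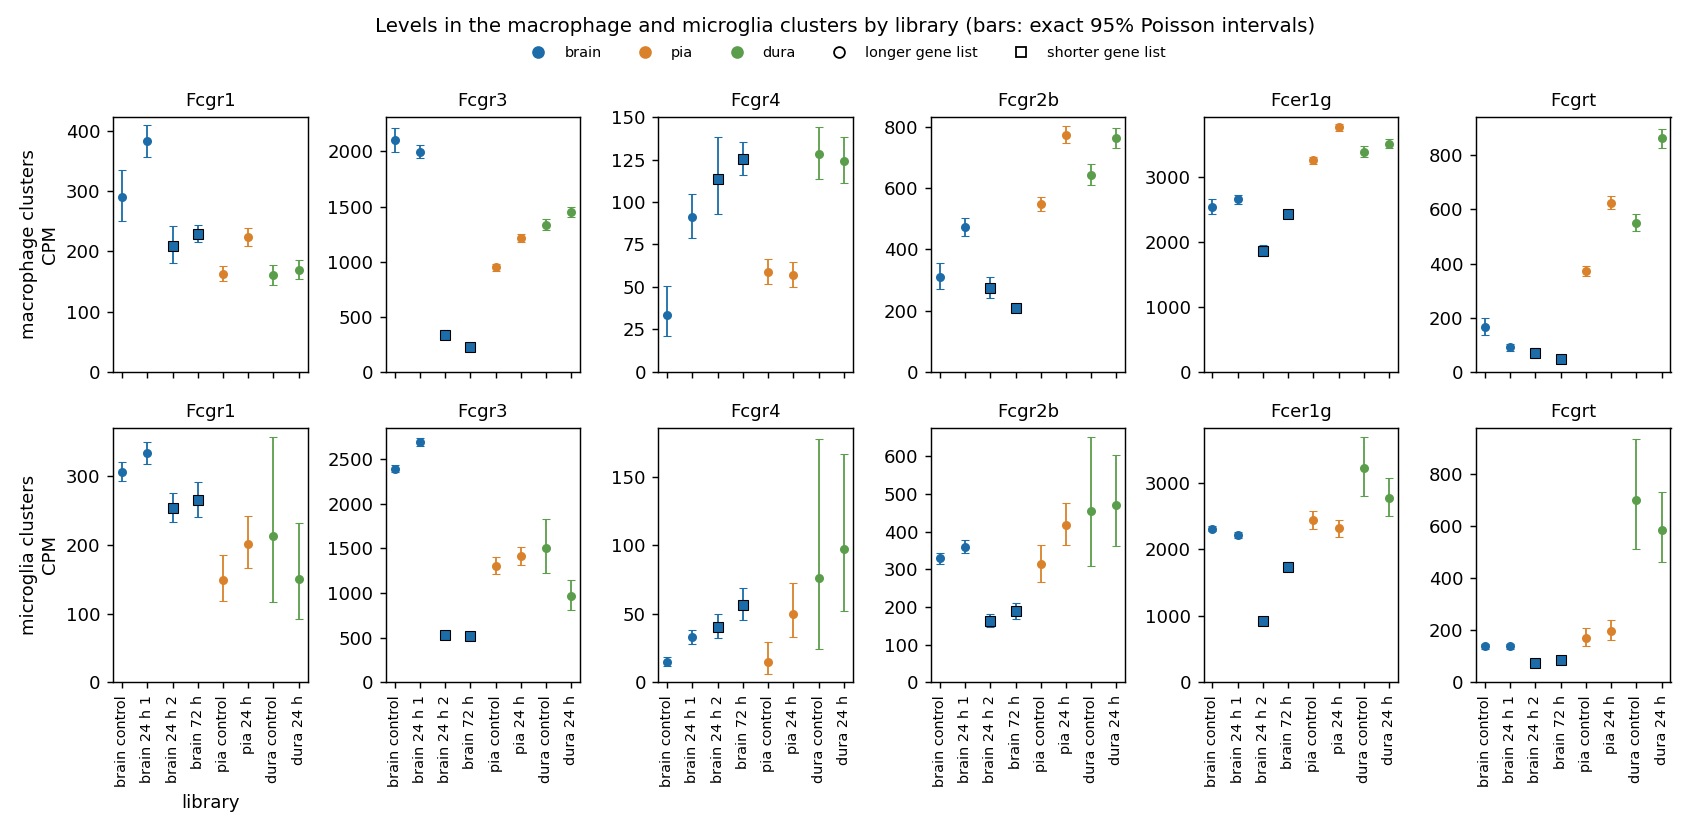
CPM of the 6 genes in the macrophage clusters (top) and the microglia clusters (bottom) of each library, on linear axes from 0. Bars are exact 95% Poisson intervals of the counts, squares the 2 libraries with the shorter gene list. Fcgr3 of brain at 24 h replicate 2 and of brain at 72 h lies at 222 to 528 CPM, below the other libraries, and Fcgrt of macrophages lies higher in pia and dura than in brain.

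The response of the macrophage clusters at 24 h after stroke was measured over the 3 tissues. Fcgr1 stood at 290.3 CPM in brains of controls, 383 and 209.5 CPM in the 24 h brain replicates and 229 CPM in the 72 h brain library, 163 and 224 CPM in pia and 160.1 and 169 CPM in dura (controls first, then 24 h). Fcgr3 stood at 2099.9 CPM in brains of controls, 1998 and 339 CPM in the 24 h brain replicates and 222 CPM in the 72 h brain library, 949 and 1216 CPM in pia and 1335 and 1447 CPM in dura (controls first, then 24 h). Fcgr4 stood at 33.3 CPM in brains of controls, 90.9 and 114 CPM in the 24 h brain replicates and 125 CPM in the 72 h brain library, 58.7 and 57.03 CPM in pia and 128 and 124 CPM in dura (controls first, then 24 h). Levels at 24 h and in control overlapped over the tissues for each of these genes. In edgeR, 0 of 10887 genes (0%) passed and none of the 6 receptors, 468 genes had an unadjusted p under 0.05, and DESeq2 called 18. Log2 fold changes of 24 h over control ranged from -0.26 (SE 0.65) for Fcgr3 to 0.45 (SE 0.41) for Fcgr4, with 0.11 (SE 0.36) for Fcgr1, 0.27 (SE 0.37) for Fcgr2b, -0.060 (SE 0.41) for Fcer1g and -0.089 (SE 0.46) for Fcgrt, and their adjusted p-values lay between 0.984 and 0.996. With the gene list as a term, none of the 6 was among the 407 of 10887 genes called, and the values of Fcgr3, Fcer1g and Fcgrt turned to 0.10, 0.069 and 0.20. Without brain at 24 h replicate 2, edgeR called 353 of 10696 genes and again none of the receptors. At such small shares of all genes, the absence of calls among 6 genes says little about the receptors.

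Within tissues, Fcgr2b was higher at 24 h in pia (549 to 774 CPM) and in dura (642 to 763 CPM, with kit versions given as 2 and 3). In brain it was higher in replicate 1 (309.9 to 472 CPM) and lower in replicate 2. Its log2 fold change with the gene list as a term was 0.41 (SE 0.18, adjusted p = 0.207). Fcgr4 in brain was 33.3 CPM in control (22 UMIs, interval 20.8 to 50.4) and 90.9 and 114 at 24 h, while control and 24 h stood at 58.7 and 57.03 CPM in pia and at 128 and 124 CPM in dura. Since each condition but brain at 24 h has 1 library, the values in pia and dura and those in brain of controls and at 72 h have no replicate check. In dura, the kit version as given and the condition cannot be told apart, but shared barcodes did not follow the given versions.

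In the microglia clusters, Fcgr4 was the receptor with the largest value at 24 h. It stood at 14.9 CPM in control brain (91 UMIs), 33.1 and 40.5 in brain at 24 h, 56.1 in brain at 72 h, 14.9 in control pia (8 UMIs) against 49.97 at 24 h (28 UMIs), and 76.0 in control dura (5 UMIs) against 97.4 at 24 h (13 UMIs). The level was higher at 24 h than in control in each of the 3 tissues. In dura its Poisson intervals overlapped, and the kit versions as given differed (2 in control, 3 at 24 h). In edgeR its log2 fold change was 1.09 (SE 0.51, adjusted p = 0.9998), and 0 of 10213 genes (0%) passed, with 223 at an unadjusted p under 0.05 and 8 called by DESeq2, Fcgr4 not among them. With the gene list as a term it was 1.12 (SE 0.30, adjusted p = 0.00711), and without the libraries with the shorter list 1.09 (SE 0.27, adjusted p = 0.0224), in fits that called 2.85% and 2.83% of all genes higher. Both settings were chosen after the data were seen, and neither leaves a replicate pair to measure the spread. Both estimate the change of Fcgr4 at 24 h from the same 6 libraries, as does the next fit, so their nearness is no separate check. Without brain at 24 h replicate 2 it was 1.11 (adjusted p = 0.0055), with 3.53% of all genes called higher. Monocyte markers in the same clusters stood higher at 24 h, going from 5.57 CPM in control brain to 16.0 and 84.9 at 24 h, from 5.59 to 41.0 CPM in pia and from 198 to 524 CPM in dura, and the microglia markers were lower at 24 h in each tissue. The cluster stress_Micro made up 24.0% of the microglia of replicate 2 and 0.367% of those of replicate 1. The part of these in the result was not tested.

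Log2 fold changes of the other receptors in microglia at 24 h lay between -0.43 (SE 0.56) for Fcgr3 and -0.064 (SE 0.47) for Fcgr2b, and each had an adjusted p of 0.9998 in edgeR. Fcgr3 was at 2391 CPM in brains of controls, 2695 and 528 CPM in the 24 h brain replicates and 525 CPM in the 72 h brain library, 1306 and 1412 CPM in pia and 1505 and 966 CPM in dura (controls first, then 24 h). Replicate 1 of brain at 24 h lay above control brain and replicate 2 far below it. With the gene list as a term the value of Fcgr3 was -0.091 (SE 0.18, adjusted p = 0.913), that of Fcgr1 0.10 (SE 0.19, adjusted p = 0.92) and that of Fcgr2b 0.18 (SE 0.18, adjusted p = 0.766), of which Fcgr1 and Fcgr2b had the opposite sign in the fit without this term. Fcgr1 in microglia was 306 CPM in control brain and 333 and 254 at 24 h, and Fcgrt was 138 and 138 and 72.7 CPM. In pia and dura the cells of these clusters carried border macrophage markers, at 782 to 3754 CPM against 2.29 to 29.6 CPM in brain, and Fcgrt stood at 171 and 198 CPM in pia and 699 and 584 CPM in dura.

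**Figure D5:**
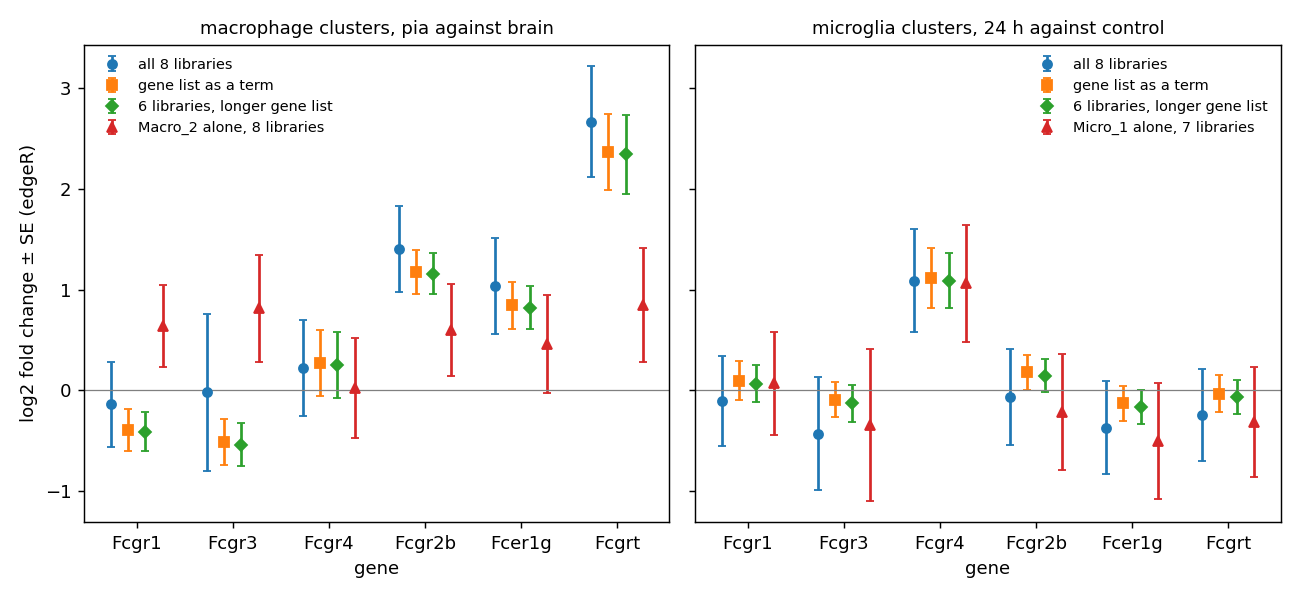
Log2 fold changes with SE from edgeR for the 6 genes, for pia over brain in the macrophage clusters (left) and 24 h over control in the microglia clusters (right), in fits of all libraries, with the gene list as a term, without the libraries with the shorter list, and of the largest cluster alone. Fcgrt lies at 2.67 with all libraries and at 0.85 in Macro_2 alone, and Fcgr4 of microglia lies between 1.07 and 1.12 in all 4 fits. The fits with the gene list as a term and without the libraries with the shorter list estimate these contrasts from the same 6 libraries.

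The contrast of 72 h with 24 h rests on brain alone. Fcgr3 in the macrophage clusters was 1998 and 339 CPM at 24 h and 222 at 72 h, and in microglia 2695, 528 and 525 CPM. The library at 72 h thus stood near replicate 2, which shares its gene list, and far from replicate 1. In edgeR the log2 fold changes of Fcgr3 were -2.53 (SE 1.18, adjusted p = 0.67) in macrophages and -1.85 (SE 0.97, adjusted p = 1.00) in microglia, with 0 of 10887 and 0 of 10213 genes (0%) called, 790 and 215 at an unadjusted p under 0.05, and 94 and 6 called by DESeq2. Without replicate 2 they were -3.21 (adjusted p = 0.000118) and -2.26 (adjusted p = 4.767e-13), and 3 of 6 receptors were called lower in each fit, where 20.7% and 24.4% of all genes were. With the gene list as a term they were -0.33 (SE 0.33, adjusted p = 0.678) and 0.13 (SE 0.29, adjusted p = 0.889). Lower Fcgr3 at 72 h was thus called only without replicate 2, when the comparison sets a library with the longer list against one with the shorter.

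Fcer1g in microglia was 2211 and 924 CPM at 24 h and 1737 CPM at 72 h, with a log2 fold change of -0.077 (SE 0.73, adjusted p = 1.00) in edgeR. With the gene list as a term, when the comparison rests on replicate 2 and the library at 72 h, it was 1.05 (SE 0.30, adjusted p = 0.0118), and 4.32% of all genes were called higher. In macrophages the value was 0.19 (SE 0.62, adjusted p = 0.929) in edgeR and 0.66 with the gene list as a term. Monocyte markers in microglia were 84.9 CPM in replicate 2 and 206 CPM at 72 h, and their part in the result was not tested.

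In the dendritic clusters, Fcgr2b was 147 and 165 CPM in brain at 24 h, 144 in brain at 72 h, 518 and 305 in pia and 413 and 436 in dura, controls before 24 h. The 3 brain libraries lay below the others. Fcgr3 went from 327 to 108 CPM in pia and from 125 to 157 CPM in dura. The share of mDC2, the cluster with more of both genes, among dendritic cells was 66.9% in control pia and 45.7% in pia at 24 h, and its part was not tested. At 24 h against control, edgeR called 0 of 9023 genes (0%) and none of the 6, with 218 at an unadjusted p under 0.05 and 2 called by DESeq2.

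Granulo_1 had Fcgr3 at 886 CPM in control pia, 1082 in that of 24 h, 988 in dura of controls, 917 in that of 24 h and 1045, 347 and 304 in brain at 24 h (replicates 1 and 2) and 72 h. Only the libraries with the shorter gene list stood apart. Its Fcgrt was 399 CPM in control pia, on 36 UMIs in 55 cells, and 15.9 to 139 CPM elsewhere. Granulo_2, the neutrophil cluster, had Fcgr3 at 342 and 293 CPM in control dura and dura at 24 h, 1002 in pia at 24 h and 633, 236 and 173 in brain at 24 h and 72 h. Its Fcgr4 was 29.0 and 52.0 CPM in dura, 122 in pia at 24 h and 93.0, 101 and 71.4 in brain. At 24 h against control edgeR called 0 of 5883 genes in Granulo_1 and 0 of 5375 in Granulo_2 (0% each) and none of the 6, with 168 and 8 at an unadjusted p under 0.05 and 4 and 0 called by DESeq2. The contrast of Granulo_2 rests on dura, since control pia and control brain had too few of these cells. There, the kit version as given and the condition cannot be told apart.

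SAMC occurred with enough cells in brain after stroke and in pia at 24 h. Fcgr1 was 234, 229.9, 243 and 228 CPM in brain at 24 h (replicates 1 and 2), brain at 72 h and pia at 24 h, the narrowest range of the 6 genes. Fcgr3 was 1268, 419, 283 and 1361 CPM in the same order, split by gene list. Fcgr2b was 353, 218, 190.1 and 813 CPM and Fcgrt 35.7, 24.6, 26.04 and 397 CPM, both highest in pia. The border macrophage markers in SAMC summed to 9.74, 86.2, 714 and 3639 CPM in these libraries, and their part was not tested. Fcgrt was lower in SAMC than in the macrophage clusters in 4 of 4 libraries, by a mean log2 difference of -1.04 ± 0.37 (SD).

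Among other cells, NK cells combined 2523 ± 552 CPM (SD, n = 6 libraries) of Fcer1g with 98.1 ± 48.3 CPM (SD, n = 6 libraries) of Fcgr3. Fcgr3 exceeded its level in T cells in 5 of 6 libraries, by a mean log2 difference of 1.02 ± 0.55 (SD). Mast cells, measured in control dura and dura at 24 h, had Fcgr3 at 265 and 391 CPM and Fcgr2b at 145 and 160.5 CPM, and no UMI of Fcgr1, which allows up to 36.2 and 20.9 CPM (3 counts per library). B cells had Fcgr2b at 58.5 and 57.3 CPM in the brain libraries with the shorter gene list, 147 and 146 in pia and 71.0 and 71.9 in dura, control first. Control and 24 h stood within counting error of each other in both borders.

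The list of other pathway genes held 41 genes, 20 for signalling downstream of activating Fc receptors (such as the kinase Syk and the phospholipase Plcg2), 7 inhibitory phosphatases and adapters (such as Inpp5d and Ptpn6), 12 other immunoglobulin receptors, and B2m and Tyrobp. Between 25 and 35 of them were tested per comparison, and in edgeR 0 passed in either direction in each of the 9 comparisons. In macrophages, where 70 genes passed in pia against brain, the 33 tested had a median log2 change of -0.37 beside -0.14 over all genes. At 24 h against control it was -0.01 beside 0.06 in macrophages and 0.09 beside 0.14 in microglia. At 72 h against 24 h it was 0.33 beside 0.00 in macrophages and 0.07 beside -0.12 in microglia. In the remaining comparisons it was 0.07 beside -0.01 (dura against pia), -0.06 beside -0.01 (dendritic clusters), -0.15 beside 0.05 (Granulo_1) and 0.36 beside 0.09 (Granulo_2).

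As a description over the 21 clusters, which share libraries only in part, Pearson's r of log2(mean CPM + 10) was computed between each receptor and 6457 genes. The mean of Macro_1 rests on brain at 72 h alone and that of stress_Micro on the 2 libraries with the shorter gene list. The part of the gene list in these r was not tested. Fcer1g was most like Tyrobp (r = 0.96), the other ITAM adapter, followed by Sptlc2 (0.84) and Sdcbp (0.83). Fcgr1 was most like Tmem86a (0.97) and P2ry6 (0.96), Fcgr3 like Atp6v0b (0.91), Camk1 (0.91) and Tcn2 (0.90), and Fcgr4 like Tlr13 (0.91), App (0.90) and Sdcbp (0.90). Fcgr2b was most like Mt1 (0.93), Zeb2os (0.91) and Stx7 (0.90). Fcgrt was most like Sult1a1 (0.93), Hfe (0.93), which like Fcgrt encodes an MHC class I-like protein, and Smagp (0.89). Among the receptors themselves, r was highest for Fcgr1 with Fcgr4 (0.84) and lowest for Fcgr4 with Fcgrt (0.41).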

How the data were processed

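Raw UMI counts were deposited per library by the authors as gene-by-barcode matrices made with Cell Ranger 6.0 on mm10, together with a table of cluster names per cell. Per the study's methods, the authors removed doublets with scDblFinder, integrated cells with Seurat, SCTransform and Harmony and named clusters by hand, and no further filter was applied here. Library kits were given as version 3 for brain at 72 h and dura at 24 h and version 2 for the others. Shared barcodes did not follow these versions. Dura at 24 h shared 12 to 35 barcodes with each other library of the longer list and 1 with brain at 72 h. Brain at 24 h replicate 2 shared 13 with brain at 72 h and 0 with every other library. The given kit versions are therefore uncertain. UMIs of the 30406 shared gene identifiers were summed per library and cluster and divided by the total for CPM, with a minimum of 30 cells. Depth ranged from 6591898 to 20754181 UMIs per library, and intervals (95%) cover counting error only. The classes joined CAM_1, CAM_2, Macro_1 and Macro_2 (macrophage), Micro_1, Micro_2, Micro_3 and stress_Micro (microglia) and mDC1 and mDC2 (dendritic). Sums of the classes were tested with edgeR 4.0.16 (TMM, filterByExpr, quasi-likelihood test, tissue and time as terms, Benjamini-Hochberg adjustment, threshold 0.05), which was tested on simulated data. DESeq2 1.42.0 was an alternative, as were library size without TMM, no filter on low counts, other cell minimums, the largest cluster alone and leaving out each library. The analyses without the libraries with the shorter gene list and with the gene list as a term were added after seeing the data. The named genes were the 6 receptors, the pathway list and the 3 genes most like each receptor, and the members and lists were chosen with earlier results of these data known. A marker gene and a gene like Fcgr1 are not reported here, and the marker was left out of its sum. Libraries are not stated to be separate mice. Only brain at 24 h has a replicate pair, and its libraries differ in gene list. The spread behind the p-values of the fits comes from this pair and, except in Granulo_2, from departures from additive tissue and time terms. With the gene list as a term, or without the libraries with the shorter list, it comes from those departures alone. In macrophages and microglia these fits, and that without brain at 24 h replicate 2, estimate the 24 h and tissue contrasts from the same 6 libraries. Promoter windows came from RefSeq (GRCm38.p6). Python 3.11.15 with numpy 2.4.6, pandas 2.3.3, scipy 1.17.1 and matplotlib 3.10.9 and R 4.3.3 were used.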

Additional observations from a re-analysis of the deposited data

Results flagged for a closer look

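Several receptors had log2 differences of CPM of opposite sign at 24 h against control in different tissues. They were flagged by sign alone, so some of these differences are small. Since every tissue but brain has 1 library per condition, the difference between tissues was not tested. In the macrophage clusters, Fcgr3 moved by -1.35 in brain (mean of 2 libraries) and by 0.36 in pia and 0.12 in dura, so that brain differed from pia by -1.71 and from dura by -1.47. Both brain libraries lay below control brain, replicate 1 slightly and replicate 2, with the shorter gene list, by far more. Fcgr4 moved by 1.61 in brain and stood nearly unchanged in pia (-0.042) and dura (-0.045), which are differences of 1.65 and 1.66. Fcgrt moved by -1.06 in brain, 0.75 in pia and 0.65 in dura, which are differences of -1.81 and -1.71. The summed microglia markers of the same clusters were 9641 CPM in control brain and 2351 and 494 CPM in brain at 24 h, and their part was not tested.

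In the microglia clusters, Fcgr1 moved by 0.44 in pia and -0.51 in dura, a difference of 0.94, and Fcgr3 by 0.11 and -0.64, a difference of 0.75. Fcgrt moved by -0.47 in brain, 0.21 in pia and -0.26 in dura, so that brain differed from pia by -0.68 and pia from dura by 0.47. The dura libraries held 51 and 76 of these cells, with 118 and 162 UMIs of the 3 activating receptors together. Their summed border macrophage markers were 3754 and 1655 CPM. No group had 4 libraries or more, so single libraries were not tested against their group.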

How the results depend on the processing

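In the order macrophages at 24 h, at 72 h, in pia against brain and in dura against pia, microglia at 24 h and at 72 h, dendritic clusters, Granulo_1 and Granulo_2, edgeR called 0, 0, 70, 0, 0, 0, 0, 0 and 0 genes. DESeq2 called 18, 94, 479, 7, 8, 6, 2, 4 and 0, and edgeR without the filter on low counts 70, 300, 719, 56, 16, 11, 5, 10 and 0. The largest cluster alone gave 2, 0, 11, 10, 0 and 0 in macrophages and microglia and 62 in dendritic clusters. Without TMM, pia against brain gave 5, and a minimum of 10 cells gave 1 gene in Granulo_2. With the gene list as a term the first 8 comparisons gave 407, 87, 2696, 123, 472, 570, 209 and 102, and without the libraries with the shorter list 169 and 321 at 24 h in macrophages and microglia, 2581 and 79 in pia against brain and dura against pia, and 107 and 123 in dendritic clusters and Granulo_1. Leaving out 1 library gave 0 to 353, 0 to 4785, 0 to 2663, 0 to 110, 0 to 499, 0 to 4297, 0 to 209, 0 to 112 and 0 to 0 genes, with the highest counts in macrophages and microglia without brain at 24 h replicate 2. Pia against brain gave 0 without control brain, control dura, control pia, dura at 24 h or pia at 24 h, and 20 without brain at 24 h replicate 1. The cause of these changes was not tested.

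Log2 fold changes that turned in sign under another setting are given next. None of the turned values was called, leaving aside that of Fcer1g of microglia at 72 h with the gene list as a term. There 1 library stands against 1, with kit versions given as 2 and 3, although these libraries shared 13 barcodes. In macrophages at 24 h, Fcgr3 was 0.074 without the shorter list and 0.096 with the gene list as a term, Fcer1g 0.047 and 0.069, and Fcgrt 0.18 and 0.20. Fcer1g was also 0.0093 without TMM and 0.0029 in the largest cluster, where Fcgr4 was -0.25. At 72 h, Fcer1g of the largest macrophage cluster was -0.45. In pia against brain, Fcgr1 was 0.64 and Fcgr3 0.82 in the largest cluster, Fcgr3 0.021 without the filter and Fcgr4 -0.27 without TMM. In microglia at 24 h, Fcgr1 was 0.070 in the largest cluster, 0.068 without the shorter list and 0.10 with the term, and Fcgr2b 0.0053 without TMM, 0.15 and 0.18. At 72 h, Fcgr3 was 0.13 with the term, and Fcer1g 0.18 with DESeq2, 0.066 without TMM, 0.24 in the largest cluster and 1.05 with the term. Without 1 library, macrophages at 24 h gave -0.082 to 0.27 for Fcgr1, -0.74 to 0.20 for Fcgr3, -0.084 to 0.76 for Fcgr4, -0.17 to 0.088 for Fcer1g and -0.42 to 0.66 for Fcgrt, and Fcer1g at 72 h -0.087 to 0.34. Pia against brain gave -0.39 to 0.13 for Fcgr1, -0.51 to 0.59 for Fcgr3 and -0.31 to 0.73 for Fcgr4, while Fcgrt stayed at 2.07 to 3.45, Fcgr2b at 1.18 to 1.67 and Fcer1g at 0.85 to 1.20. Microglia gave -0.32 to 0.084 for Fcgr1, -0.32 to 0.24 for Fcgr2b and 0.86 to 1.30 for Fcgr4 at 24 h and -0.34 to 0.44 for Fcer1g at 72 h. Without the filter on low counts, Fcgrt of macrophages in pia against brain was 2.71 (edgeR, adjusted p = 2.545e-05). The dendritic activating to inhibitory difference was -0.45 to 0.22 without 1 library, and that of macrophages -0.66 to -0.14.

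No paired analysis was possible because the groups share fewer than 2 replicate numbers. Of 7 conditions, 6 have 1 library, so of the conditions only brain at 24 h has a replicate check. Brain at 72 h and 1 of 2 libraries of brain at 24 h have the shorter gene list. The kit version as given and the condition cannot be told apart at 72 h in brain and at 24 h in dura. The given versions are uncertain, since shared barcodes did not follow them. Fcgr4 rests on 5 to 163 UMIs per library in microglia, so its difference between control dura and dura at 24 h was not detectable at this depth.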

Other observations

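Clusters not described above also carried parts of this receptor set, given as values without a test. In stress_Micro, a microglia cluster with enough cells in 2 libraries, both with the shorter gene list, Fcgr1 averaged 179 ± 9.53 CPM (SD, n = 2 libraries) and Fcer1g 859.6 ± 269 CPM (SD, n = 2 libraries). In stress_Myeloid, Fcgr2b averaged 459 ± 188 CPM (SD, n = 3 libraries) and Fcgr3 452 ± 135 CPM (SD, n = 3 libraries). The proliferating cells had 1373 ± 303 CPM (SD, n = 3 libraries) of Fcer1g and 222 ± 44.3 CPM (SD, n = 3 libraries) of Fcgr3. Type 2 innate lymphoid cells (ILC2) and γδ T cells (gdTc) had 284 ± 162 CPM (SD, n = 5 libraries) and 159 ± 47.3 CPM (SD, n = 4 libraries) of Fcer1g, with 19.3 ± 21.5 CPM (SD, n = 5 libraries) and 13.4 ± 9.42 CPM (SD, n = 4 libraries) of Fcgr2b.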
